A study of Mus musculus with 36 samples.

Results

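The regions described here are stretches of the mouse genome that carried a peak of histone H3 lysine 27 acetylation (H3K27ac) in the dorsal hippocampus of both groups of control-vector mice and in neither group of Acss2 knockdown mice. Peaks of the 4 H3K27ac lists that overlapped or touched on the assembled chromosomes were merged into 149468 regions, and 1562 of these, or 1.05%, overlapped a peak of the ethanol and the untreated control list and no peak of either knockdown list. They are called control-only regions below. They were chosen by the presence or absence of H3K27ac peaks in these lists, so their H3K27ac values are descriptions.

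The study profiled H3K27ac, H3K9ac and input chromatin by ChIP-seq in 36 samples, 3 per group, from male mice aged to 8 weeks. The conditions for each mark were knockdown mice given ethanol, untreated knockdown mice, control mice given ethanol and untreated control mice. Knockdown mice received an AAV2/9 vector (U6.shACSS2.CMV.EGFP) that expresses a short hairpin RNA against Acss2, placed in the dorsal hippocampus, and control mice received a control vector in the brain; ethanol was given into the peritoneum at 2 g/kg as a 20% solution. About 20 mg of dorsal hippocampus was taken per mouse, so each sample mixes all cell types of that tissue, transduced or not. The deposited data are 1 peak list per mark and condition, which the labels of all 3 replicates name, so no spread between mice can be given and no test of a difference between conditions was possible. Read numbers are unknown for all lists, and a longer list may reflect more reads.

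H3K27ac marks active promoters and enhancers, the distal elements that raise transcription of nearby genes, and H3K9ac sits mainly at active promoters. ACSS2 is the enzyme that makes acetyl-CoA from acetate, a product of ethanol breakdown, in the nucleus and cytosol, and acetyl-CoA is the donor that histone acetyltransferases use. Hippocampal tissue holds neurons, astrocytes, microglia, vessel cells and oligodendrocytes, the cells that wrap axons in myelin and that draw on acetyl groups for myelin lipid.

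The tissue label was checked with marker genes that have a start in the RefSeq table. An H3K27ac peak lay within 1 kb of a start for 13 to 14 of 15 excitatory neuron genes across the 4 lists, for 12 to 15 of 16 astrocyte genes and for 10 to 12 of 15 oligodendrocyte genes. Hippocampal subfield genes had one at 12 to 13 of 15. Counts were lower for inhibitory neuron genes (8 to 10 of 17), endothelial and mural genes (6 to 9 of 16) and microglia genes (4 to 5 of 15). Genes of other tissues had one at 1 to 2 of 18. A hairpin acts on the messenger RNA, so peak lists give no check of the knockdown itself. The H3K27ac lists held 119317 peaks in ethanol-treated knockdown, 101690 in untreated knockdown, 86110 in ethanol-treated control and 89935 in untreated control mice, and the H3K9ac lists held 42120, 38484, 31042 and 38235 peaks in that order of conditions.

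Few control-only regions lay on a promoter, and 3 of those that did are shown because they place the control peak on the sequence of a named gene. Of 21263 RefSeq promoter windows of protein-coding genes (GRCm38.p6, 250 bases before to 50 after a start), 24 overlapped a control-only region, and 15 of them shared at least 100 bases. Each sequence runs 5′ to 3′ on the gene's strand, and capitals mark the bases inside the control-only region. Hat1 encodes a histone acetyltransferase that acts on newly made histone H4, Nxph1 encodes neurexophilin, a secreted ligand of neurexins, and Tspan14 encodes a tetraspanin that binds the protease ADAM10.
Hat1: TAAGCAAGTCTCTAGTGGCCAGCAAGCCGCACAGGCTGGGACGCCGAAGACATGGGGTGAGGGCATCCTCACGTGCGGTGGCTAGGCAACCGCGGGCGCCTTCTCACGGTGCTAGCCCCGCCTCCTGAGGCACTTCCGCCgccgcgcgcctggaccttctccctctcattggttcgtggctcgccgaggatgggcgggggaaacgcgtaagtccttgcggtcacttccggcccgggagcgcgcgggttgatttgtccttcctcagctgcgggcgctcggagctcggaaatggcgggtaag
Nxph1: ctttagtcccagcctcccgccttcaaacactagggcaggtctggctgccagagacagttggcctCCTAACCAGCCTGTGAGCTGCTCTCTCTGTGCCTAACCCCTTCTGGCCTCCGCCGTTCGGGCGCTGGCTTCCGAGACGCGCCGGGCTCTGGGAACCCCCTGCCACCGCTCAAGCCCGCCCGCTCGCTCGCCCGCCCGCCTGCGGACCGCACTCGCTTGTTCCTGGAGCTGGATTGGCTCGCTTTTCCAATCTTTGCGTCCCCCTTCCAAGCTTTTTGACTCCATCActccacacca
Tspan14: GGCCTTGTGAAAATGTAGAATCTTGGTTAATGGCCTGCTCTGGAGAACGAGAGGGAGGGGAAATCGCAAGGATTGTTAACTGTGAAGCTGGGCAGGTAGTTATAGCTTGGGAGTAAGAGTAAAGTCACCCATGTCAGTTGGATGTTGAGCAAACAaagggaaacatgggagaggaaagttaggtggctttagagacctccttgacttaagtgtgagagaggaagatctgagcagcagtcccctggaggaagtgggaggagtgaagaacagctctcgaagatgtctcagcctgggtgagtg

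The Hat1 window spans chr2:71389010-71389309 on the plus strand, and its control-only region, chr2:71388892-71389149, covers the upstream 140 bases. The peak there scored 6.14 in ethanol-treated control and 6.04 in untreated control mice, by the deposited score, which is taken here as −log10 q. Knockdown peaks began only 144 bp away in ethanol-treated mice, with a score of 31.21, and 168 bp away in untreated mice, with a score of 16.73. The upstream edge of this promoter was thus in control peaks alone, while a knockdown peak lay next to it. H3K9ac ran the other way here: an untreated knockdown peak covered 145 bp of the region, and neither control list had one.
The Nxph1 window spans chr6:8949769-8950068 on the plus strand, and its control-only region, chr6:8949833-8950058, lies wholly inside the window. That region scored 6.96 in ethanol-treated control and 5.49 in untreated control mice. The nearest knockdown peak was 541 bp away in ethanol-treated mice and 171189 bp away in untreated mice. An untreated knockdown H3K9ac peak covered 88 bp of this region, against 0 bp in both control lists.
The Tspan14 window spans chr14:40948160-40948459 on the minus strand, and its region, chr14:40948305-40948605, scored 5.36 in ethanol-treated control and 6.04 in untreated control mice. Knockdown peaks lay 67 bp away in ethanol-treated and 90 bp away in untreated mice. The 24 windows had a median GC content of 56.67%, against 56.33% in all 21263. The motifs searched, on both strands, were CRE (TGACGTCA), AP-1 (TGANTCA), the E-boxes CAGCTG and CAGATG, EGR (GCGTGGGCG), ETS (CCGGAAG), SOX (AACAATG), and NFI and RFX, which are given by name alone. CAGCTG was in 4 of the 24 windows (16.67%), Hat1 among them, against 15.56% of all windows, and ETS was in 3 of the 24 (12.5%), against 11.56%. A match here is a stretch of letters and not a measured site.

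Control-only regions were the smallest of the 6 classes held by exactly 2 of the 4 H3K27ac lists. Regions in both knockdown lists only numbered 9752, or 6.52% of all regions. Those in both ethanol lists only numbered 4343 and those in both untreated lists only 2555. With each list cut to its 86110 highest-scoring peaks, 2702 regions were control-only and 4985 were in both knockdown lists only. Joining peaks up to 500 bp apart before classing left 710 control-only regions.

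**Figure D1:**
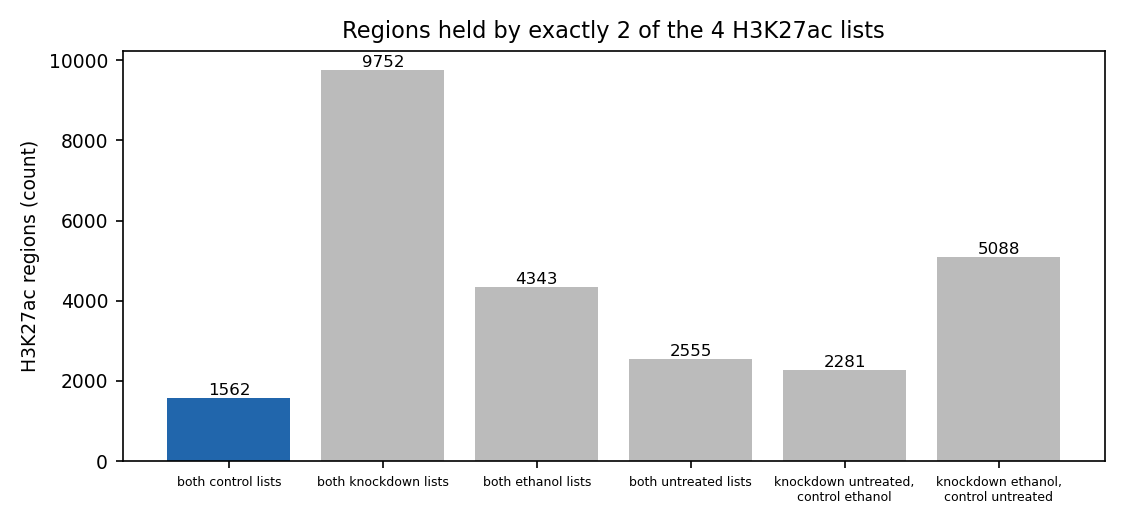
Bars count the merged H3K27ac regions held by exactly 2 of the 4 lists, with the pair of lists on the x axis. The 1562 regions in both control lists are the shortest bar and the 9752 in both knockdown lists the tallest.

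Peaks in control-only regions were narrow and low. Region width had a median of 269 bp and ran from 129 to 1100 bp, against a median of 317 bp for regions in both knockdown lists only and 915 bp for regions in all 4 lists. Scores had a median of 5.36 in the ethanol control list (3.06 to 20.62) and 5.23 in the untreated control list (3.02 to 16.45), where the lists themselves start at 3. Ranked within their own list, the median peak stood at percentile 28.5 in the ethanol and 30.98 in the untreated control list. In 84 regions (5.38%) both peaks were above their list's median, and in 1016 (65.04%) neither was. The widest region, chr7:125104618-125105717, spans 1100 bp and lies 263.1 kb from its nearest gene, 4930571K23Rik. Next was chr15:66240755-66241589, 835 bp inside Kcnq3, which encodes a subunit of the M-type potassium channel; it scored 4.61 in ethanol-treated and 7.84 in untreated control mice.

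Most control-only regions stood beside a knockdown peak. A knockdown H3K27ac peak lay within 150 bp of 446 of them (28.55%), within 1 kb of 1173 (75.1%) and within 10 kb of 1447 (92.64%), at a median distance of 327 bp. For regions in both knockdown lists only, a control peak lay within 1 kb of 58.68%, at a median of 648 bp. The knockdown lists held more peaks, 119317 (ethanol) and 101690 (untreated), against 86110 (ethanol) and 89935 (untreated) in the control lists. These distances were not adjusted for that. Both knockdown lists had a peak within 1 kb of 812 control-only regions; 227 had one in the ethanol list only, 134 in the untreated list only, and 389 had none. A region of all 4 lists lay within 1 kb of 580 control-only regions (37.13%, 95% Wilson interval 34.77 to 39.56), against 31.33% of the regions in both knockdown lists only. At the edge of the rule, 5 control-only regions had a knockdown peak 1 bp away and 32 had one within 10 bp. Among the 44934 regions of both control lists with a knockdown peak, 18 shared 10 bp or less with it.

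**Figure D2:**
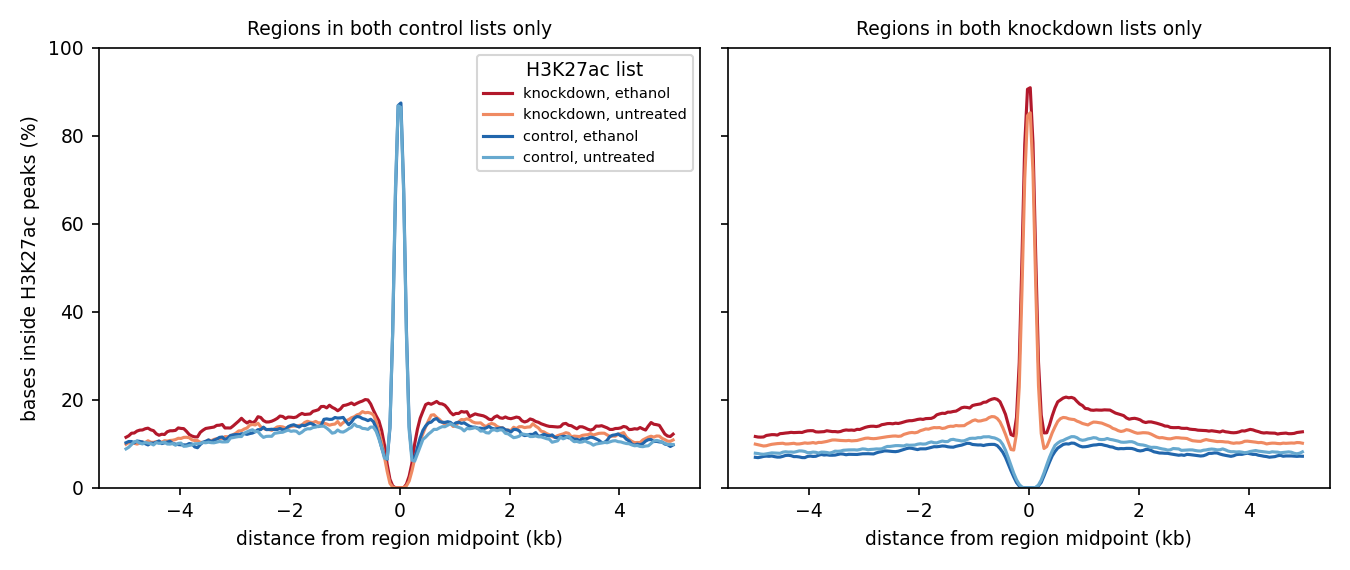
Lines give the percentage of bases inside H3K27ac peaks of each list by distance (kb) from the midpoint of control-only regions (left) and of regions in both knockdown lists only (right). Knockdown lists are at 0 at the midpoint of control-only regions and reach 20.06% (ethanol) and 17.32% (untreated) in the flanks, where control lists reach 16.2% (ethanol) and 14.57% (untreated).

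Of the 2000 bp beside control-only regions, ethanol-treated knockdown peaks covered 323.6 bp and untreated knockdown peaks 263.4 bp on average, against 253.7 bp for ethanol-treated and 225.4 bp for untreated control peaks. The ratio of knockdown to control in these flanks was 1.28 with ethanol and 1.17 untreated, no more than the 1.50 and 1.19 of the whole lists. The plot of coverage by distance shows the dip at the centre and the rise beside it.

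Control-only regions lay mainly inside genes, as did H3K27ac regions in general. The midpoint was inside a gene for 1074 (68.76%), within 1 kb of a gene end for 105 (6.72%) and outside genes for 383 (24.52%). Of all regions 62.17% were inside and 23.97% outside genes, and of those in both knockdown lists only 65.92% and 27.81%. A gene end was near 6.27% of regions in both knockdown lists only, 33.52% of regions in all 4 lists and 13.87% of all regions. By chromosome, the share of regions that were control-only ran from 0.739% on X to 1.325% on chromosome 9, leaving aside chromosome Y with 1 of 38. Without the 17 regions at its start, described below, chromosome 9 was at 1.127% and chromosome 12 was highest, at 1.29%.

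Genes of the oligodendrocyte lineage held more control-only regions, within 10 kb, than any of the other 20 gene lists examined. Of 21887 protein-coding genes, 1310 (5.99%) held a control-only region in the gene body or within 10 kb, and 1.00% of the H3K27ac regions at genes were control-only. Of the 23 oligodendrocyte lineage genes, 14 held one (60.87%, interval 40.79 to 77.84). In the gene body alone the count was 8 of 23, where voltage-gated ion channel genes had 9 of 31. Of the 417 H3K27ac regions at these genes, 23 were control-only (5.52%, interval 3.70 to 8.14) and 13 were in both knockdown lists only (3.12%, interval 1.83 to 5.26, against 5.88% at all genes). In this bulk tissue, fewer cells of a type and less acetylation per cell cannot be told apart. Without a test across lists, nothing is called particular to this gene group. With the control lists alone cut to a score of 5, its control-only share was 2.41%, against 0.396% of all regions. Its share in both knockdown lists only was then the higher, at 5.6%, or 21 regions against 9. With peaks merged within 500 bp, 9 regions were control-only and 8 were in both knockdown lists only. With lists of equal length these counts were 35 and 5.

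**Figure D3:**
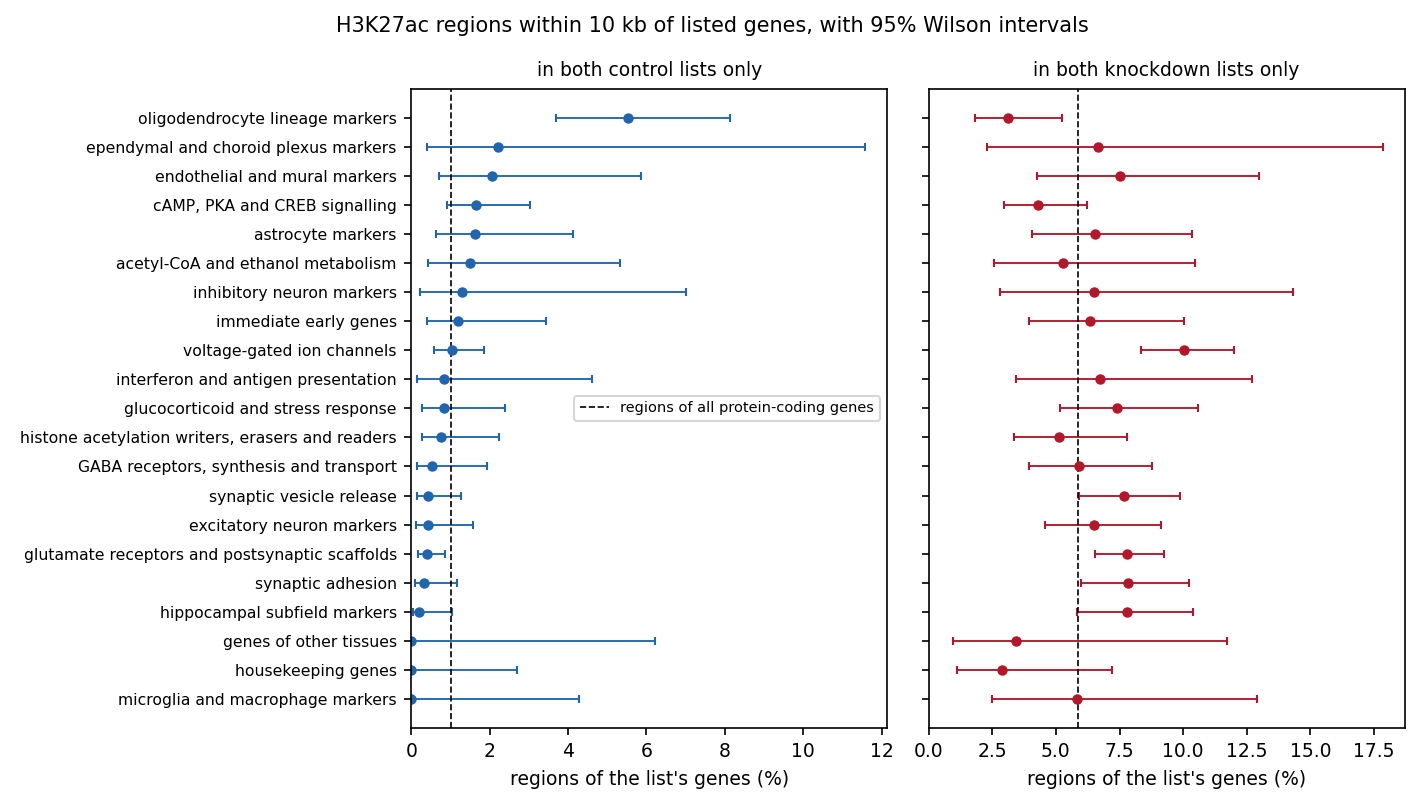
Points give the percentage of each list's H3K27ac regions (gene body and 10 kb) in both control lists only (left) and in both knockdown lists only (right), with 95% Wilson intervals; dashed lines mark all protein-coding genes, at 1.00% and 5.88%. Oligodendrocyte lineage genes are at 5.52% on the left and 3.12% on the right.

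The transcription factors that specify and mature the lineage were among the 14 genes. Beside Olig2, which commits precursors to the lineage, the region chr16:91229713-91230027 scored 10.46 in ethanol-treated and 11.49 in untreated control mice. These were the highest scores among the 23 regions, and the region is 1036 bp from the gene. Knockdown peaks were 461 bp away in ethanol-treated mice (score 3.90) and 2151 bp away in untreated mice (score 14.46). Olig1, its neighbour, had 2 regions, chr16:91263881-91264148 and chr16:91280784-91281066, with scores of 6.14 and 7.79 in ethanol-treated and 3.73 in both for untreated control mice. Sox10, which drives myelin genes, had chr15:79157916-79158153 inside the gene, scoring 7.79 in ethanol-treated and 5.23 in untreated control mice. Myrf, the factor that starts myelination, had chr19:10235949-10236438, 490 bp wide and the widest of the 23, with an untreated knockdown peak 7 bp away. The Olig2 region stood at percentile 70.16 in the ethanol and 75.31 in the untreated control list, and the others of this group at or below percentile 55.95 in both. Sox10 and Myrf also held 1 region each in both knockdown lists only, while Olig1 and Olig2 held 0.

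Genes of the myelin sheath and its lipids followed the same description. Ermn, which encodes ermin, a cytoskeletal protein of myelinating cells, had 3 regions. One of them, chr2:58050477-58050854, scored 7.79 in ethanol-treated and 5.23 in untreated control mice. Aspa encodes aspartoacylase, which frees acetate from N-acetylaspartate, and Fa2h encodes the hydroxylase of myelin sphingolipids; each had 3 regions. Scores ran from 3.89 to 6.14 at Aspa and from 3.89 to 7.68 at Fa2h in ethanol-treated control mice, and from 4.47 to 8.65 at Aspa and from 3.73 to 6.04 at Fa2h in untreated control mice. Cldn11, the tight-junction claudin of myelin, had 2 regions. Mbp, Mobp, Mag and Cnp, which encode proteins of compact myelin, its inner wrap or its channels of cytoplasm, had 1 each. Mag, for example, had chr7:30917927-30918178 with scores of 6.14 in ethanol-treated and 6.04 in untreated control mice and knockdown peaks 560 bp (ethanol) and 578 bp (untreated) away. Regions in both knockdown lists only numbered 5 at Mbp, 2 at Mag, 2 at Cnp and 1 at Mobp. Mbp, Mag and Cnp thus held more of these than control-only regions. Ermn, Aspa, Fa2h and Cldn11 held 0 of them.
Markers of precursor stages were also present. Cspg4, the NG2 proteoglycan of precursors and of pericytes, had 2 regions, and Gpr17, a receptor of cells on the way to myelination, had 1. The other 9 genes of the list, among them Nkx2-2, Mog and Pdgfra, held none. Of the 23 regions, 16 had a knockdown peak within 1 kb, and the 23 had a median width of 282 bp.

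Total acetylated sequence at the oligodendrocyte genes was compared by the bases inside peaks. H3K27ac peaks covered 112.9 kb at these genes in ethanol-treated knockdown and 100.4 kb in untreated knockdown mice, against 118.7 kb in ethanol-treated and 99.75 kb in untreated control mice. The ratio of knockdown to control was 0.951 with ethanol and 1.01 without, where the whole lists gave 1.50 and 1.19. The other 20 lists ran from 1.23 to 2.09 with ethanol and from 1.07 to 1.38 without, all above the oligodendrocyte list. These ratios come from the same H3K27ac lists that chose the control-only regions, so they are descriptions and not separate evidence. Excitatory neuron genes, for example, gave 1.88 with ethanol and 1.12 without. Leaving out the bases inside the 23 control-only regions, the oligodendrocyte ratio was 0.993 with ethanol and 1.06 without. This took 5.04 kb from the ethanol and 4.77 kb from the untreated control list and none from knockdown lists. It could therefore only raise the ratio, and regions in both knockdown lists only stayed in.
H3K9ac, which the choice of regions did not use, covered 32.16 kb at these genes in ethanol-treated knockdown and 24.0 kb in untreated knockdown mice, against 23.6 kb in ethanol-treated and 39.09 kb in untreated control mice. The ratio was 1.36 with ethanol, where the other 20 lists ran from 1.40 to 2.32, and 0.614 without, where they ran from 0.876 to 1.10. Low H3K9ac at oligodendrocyte genes in untreated knockdown mice was already known from these lists, so this is not independent evidence.

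Several neuronal and synaptic lists had shares below the 1.00% of all genes, but the interval lay wholly below it for glutamate receptor and postsynaptic genes alone among the 21 lists. Glutamate receptor and postsynaptic genes had 6 of 1517 (0.396%, interval 0.181 to 0.860), one each at Dlgap3, Gria1, Grik3, Grin2b, Grin3a and Grm3, while 7.78% of their regions were in both knockdown lists only. Hippocampal subfield markers had 1 of 538 (0.186%, interval 0.0328 to 1.05), near Fibcd1, and synaptic adhesion genes had 2 of 624 (0.321%, interval 0.0879 to 1.16), at Cadm2 and Nrxn2. Excitatory neuron markers had 2 of 462 (0.433%, interval 0.119 to 1.56), at Cux2 and Grin2b, and synaptic vesicle genes 3 of 692 (0.434%, interval 0.148 to 1.27), at Stx1a, Syn3 and Vamp1. Inhibitory neuron and GABA genes appear only in the plot of the gene lists, and their intervals include 1.00%. Voltage-gated ion channel genes were at the background, with 11 of 1057 (1.04%), and 9 of their 31 genes held one.
Genes of cAMP signalling had 10 of 605 regions (1.65%, interval 0.900 to 3.02), of which 3 lay at Pde10a, a phosphodiesterase that breaks down cyclic nucleotides, 2 at Adcy5, an adenylyl cyclase, and 2 at Prkar1b, a regulatory subunit of protein kinase A. Astrocyte markers had 4 of 245 (1.63%), at the glutamate transporter Slc1a2, at Glul and at Ntsr2. Microglia genes had 0 of 86, which allows a share of up to 3.49%, housekeeping genes 0 of 138 (up to 2.17%) and genes of other tissues 0 of 58 (up to 5.17%). These limits are 3 counts of the total and cover counting error only; the Wilson upper limits are 4.28%, 2.71% and 6.21%.

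Immediate early genes, whose transcription follows neuronal activity within minutes, had 3 control-only regions of 253, each outside the gene body. One lay 5168 bp from Arc (chr15:74677738-74677958), with scores of 8.66 in ethanol-treated and 7.75 in untreated control mice and knockdown peaks 110 bp (ethanol) and 97 bp (untreated) away. The others lay 5876 bp from Fos and 5550 bp from Gadd45b. In acetyl-CoA metabolism, 2 of 133 regions were control-only, at Acly, the citrate-dependent source of acetyl-CoA, and at Slc16a3, a monocarboxylate carrier. Among histone acetylation genes, 3 of 390 were control-only, at Hat1, Brd1 and Kat6b. For these lists the intervals include the 1.00% of all genes.
Other lists also had 1 to 3 control-only regions. Endothelial and mural markers had 3 of 146 (Slc2a1 and the shared Cspg4), ependymal markers 1 of 45 (Foxj1), glucocorticoid genes 3 of 364 (Sult1a1 and Zbtb16) and interferon genes 1 of 119 (Stat2).

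Across all genes, control-only regions were mostly single. Of the 1310 genes with one, 1099 held 1, 156 held 2 and 55 held 3 or more. Dip2b held the most, 7 of its 91 H3K27ac regions, with 1 in both knockdown lists only. Daam1, a formin of the planar cell polarity pathway, held 6 of 113, with 4 in both knockdown lists only. Arid1b, a subunit of the BAF chromatin remodelling complex, held 6 of 202, with 12 in both knockdown lists only. Sik3, Phactr3, Rnf220 and Plcl1 held 5 each, and Gna12, Ank and Rgs3 held 4 each. Of the genes with a control-only region, 55.04% also held a region in both knockdown lists only, against 22.15% of all protein-coding genes; gene length and the number of regions per gene, which move with both counts, were not adjusted for.

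At gene ends, 125 protein-coding genes (0.571%) had a control-only region overlapping the 1 kb around an end. The highest by rank was at Ccnjl, chr11:43586039-43586248, with scores of 8.54 in ethanol-treated and 11.49 in untreated control mice; knockdown peaks were 87 bp (ethanol) and 814 bp (untreated) away. At Actr3b, which encodes an actin-related protein, chr5:25760827-25761018 scored 7.79 in ethanol-treated and 7.75 in untreated control mice, beside knockdown peaks with scores of 56.5 (ethanol, 123 bp away) and 45.01 (untreated, 156 bp away). At Ndufs5, a subunit of respiratory complex I, chr4:123717352-123717529 lay between 134 and 140 bp from knockdown peaks with scores of 51.35 (ethanol) and 41.69 (untreated). In both, a high-scoring knockdown peak stood next to the control-only region. Bcl6b, Diaph3, Scaf1, Hdgfl2 and Plin4 (which share a region), Gm51999 and Mc1r completed the highest 10.

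By the lower of its 2 within-list percentiles, the highest control-only region was chr13:52564330-52564540, 18.07 kb from Syk, a tyrosine kinase of immune receptors. It scored 13.33 in ethanol-treated and 13.49 in untreated control mice, and the nearest knockdown peaks were 6038 bp (ethanol) and 5525 bp (untreated) away. A region inside Rab31, a small GTPase of vesicle transport, chr17:65744175-65744394, scored 11.4 in ethanol-treated and 13.49 in untreated control mice, but knockdown peaks lay 129 bp (ethanol) and 153 bp (untreated) away. Regions near Gm15319, Clint1 and Sumf1 also stood in the highest 12. The remaining 7 of these 12 lay inside H3K9ac peaks of all 4 lists, 5 of them at the start of chromosome 9.

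The start of assembled chromosome 9, where the mouse assembly is known to hold satellite repeats, carried 17 control-only regions between chr9:3000024 and chr9:3035236. All 17 were wholly inside H3K9ac peaks of all 4 lists. H3K27ac peaks on the first 100 kb numbered 0 in ethanol-treated and 2 in untreated knockdown mice, against 45 in ethanol-treated and 19 in untreated control mice. H3K9ac peaks there covered 18142 bp in ethanol-treated and 20803 bp in untreated knockdown mice, against 34082 bp in ethanol-treated and 22723 bp in untreated control mice. The sources used here do not say how reads from repeats were treated. No other 1 Mb stretch held as many: the next, on chromosome 15 from 100 to 101 Mb, held 10, and 841 of 2360 stretches with a region held at least 1.

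**Figure D4:**
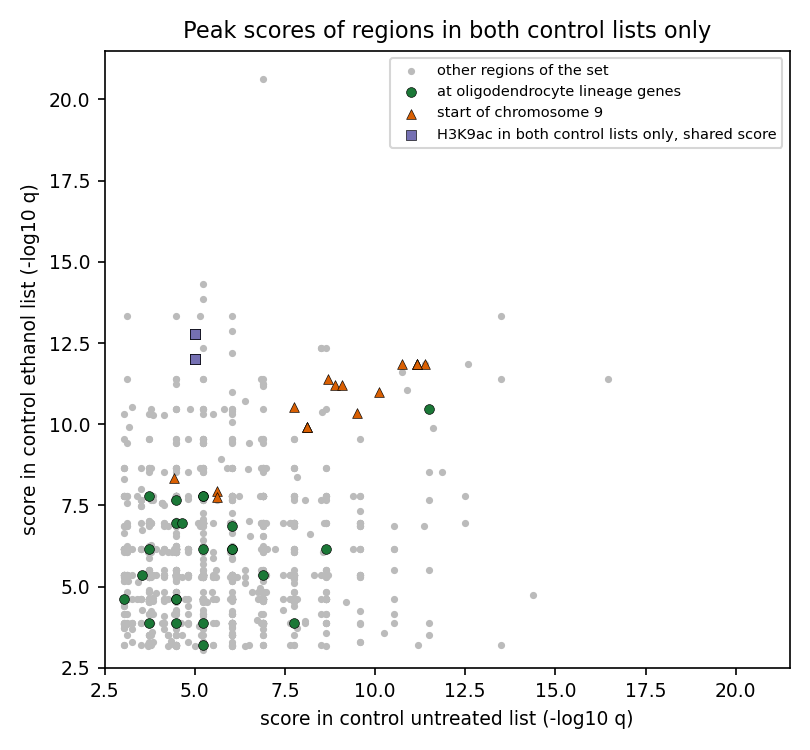
Each point is a control-only region, by its score in the untreated control list (x axis) and in the ethanol control list (y axis), both taken as −log10 q. Most lie below 10 on both axes; the 17 regions at the start of chromosome 9 rise to 11.85 on the y axis, and the oligodendrocyte region farthest up is that near Olig2 at 10.46.

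H3K9ac was rare at control-only regions. A peak overlapped 119 of them in ethanol-treated knockdown (7.62%, interval 6.40 to 9.04) and 102 in untreated knockdown mice (6.53%, 5.41 to 7.87), against 63 in ethanol-treated control (4.03%, 3.17 to 5.13) and 134 in untreated control mice (8.58%, 7.29 to 10.07). No list had one at 1318 regions (84.38%). Among all H3K27ac regions the shares were 20.7% and 18.46% in ethanol-treated and untreated knockdown mice, against 14.33% and 18.99% in ethanol-treated and untreated control mice. Regions in both knockdown lists only had lower shares in every condition, at 6.58%, 4.60%, 1.67% and 4.50% in the same order. Without the start of chromosome 9 the control-only shares were 6.60%, 5.50%, 2.98% and 7.57%.

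**Figure D5:**
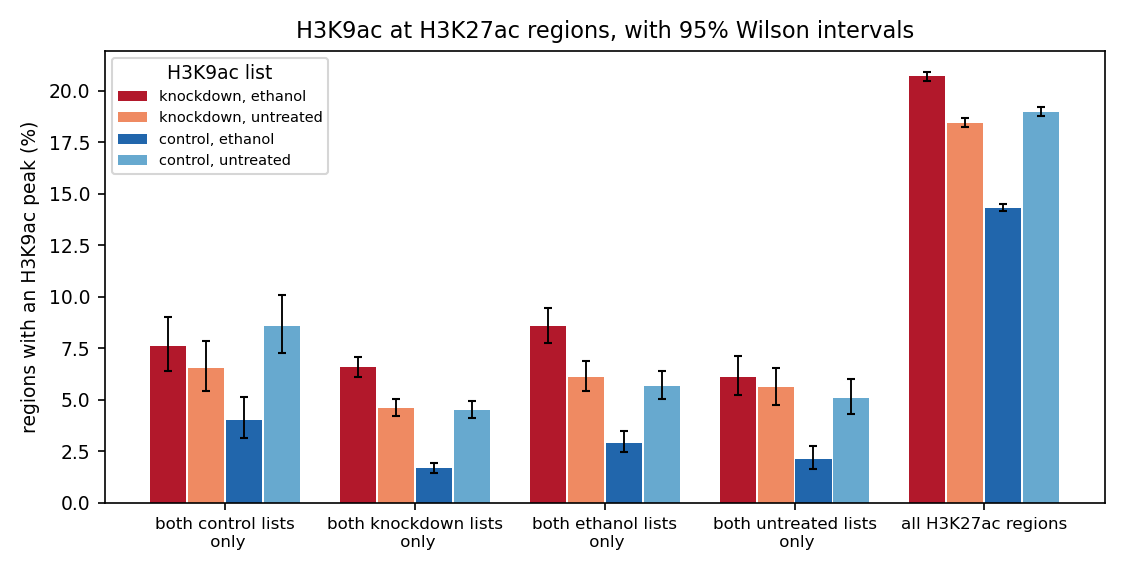
Bars give the percentage of H3K27ac regions with an H3K9ac peak in each of the 4 H3K9ac lists, by class of region, with 95% Wilson intervals. In every class the ethanol-treated control list is lowest, at 4.03% for control-only regions and 14.33% for all regions.

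H3K9ac had the same presence in control and absence in knockdown at few control-only regions. Under ethanol, 30 control-only regions (1.92%, interval 1.35 to 2.73) had H3K9ac in control and not in knockdown mice, where all regions gave 1.07%, and 86 (5.51%) had it in knockdown and not in control mice, where all regions gave 7.44%. In untreated mice, 80 (5.12%, interval 4.13 to 6.33) had it in control and not in knockdown mice, against 3.91% of all regions, and 48 (3.07%) had it in knockdown and not in control mice, against 3.38%. Of the regions with H3K9ac in 1 vector only, the control share was therefore 25.86% under ethanol (interval 18.76 to 34.51). It was 62.5% untreated (53.86 to 70.41). Among all regions these shares were 12.56% and 53.63%, and among regions in both knockdown lists only 11.56% and 49.03%. Regions in both ethanol lists only gave 16.62% (interval 13.16 to 20.77) and 46.77%. Those in both untreated lists only gave 17.31% (interval 12.18 to 24.01) and 45.75%, and regions in all 4 lists 11.04% and 56.93%. Control-only regions away from oligodendrocyte lineage genes gave 24.78% under ethanol and 62.1% untreated. The lists of both marks may share inputs, so these shares are descriptions.
Both H3K9ac control lists and neither knockdown list had a peak at 12 control-only regions (0.768%), against 0.214% of all regions. Of these 12, 10 share their scores, as given in the next paragraph, and without them the count was 2. Of the 320 H3K27ac regions with this H3K9ac pattern, the 10 with the shared untreated score were all control-only. The opposite, H3K9ac in both knockdown lists only, held for 6 (0.384%), against 1.11% of all regions. Those 6 lay at Anks1b, Igf1, Creb5, Mrps9, Rtn4 and Lonp2, which were named because the count is small.

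Of the 12 regions with both marks in control lists alone, 2 lay in Tbk1 and Ermn and differed in H3K27ac scores from the other 10. At Tbk1, a kinase of innate immune signalling, chr10:121576660-121576992 scored 13.84 in ethanol-treated and 5.23 in untreated control mice, and the nearest knockdown peak was 9031 bp away. The other was the Ermn region given above, where H3K9ac covered 22 bp in ethanol-treated and 192 bp in untreated control mice. The remaining 10 shared values, which was noticed after the values were seen: each scored 5.015 in the untreated control H3K27ac list and either 12 or 12.78 in the ethanol control list. Their H3K9ac scores were shared too, at 4.607 or 4.986 in the ethanol and 10.97 in the untreated control list. They were 176 to 236 bp wide, lay on 6 chromosomes near or in Epha4, Cdc73, Pnpt1, Kcnh6, Gbe1, Arfgef2, Rdh13, Abhd2, Cemip and 4930595M18Rik, and were the only control-only regions with that untreated score. Equal H3K27ac scores were not limited to these 10. The Tbk1 and Ermn regions both scored 5.229 in untreated control mice, which was also the median of control-only regions. Regions inside Plaat3 and Pigb both scored 12.36 in ethanol-treated and 8.501 in untreated control mice. What gives separate places the same scores was not tested. Without these 10 the count was 2. The control share of regions with H3K9ac in 1 vector only was then 18.87% under ethanol (interval 12.56 to 27.35). Untreated it was 59.32% (interval 50.3 to 67.76). The untreated interval then included the 53.63% of all regions, and the ethanol interval began at their 12.56%. Regions in both ethanol lists only were at 16.62% under ethanol, and those in both untreated lists only at 17.31%.

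At the 23 oligodendrocyte regions, H3K9ac overlapped 1 in ethanol-treated and 2 in untreated knockdown mice, against 2 in ethanol-treated and 4 in untreated control mice. At Mbp, an untreated control H3K9ac peak covered 323 bp of the region and no other list had one. At Mobp, it covered 124 bp in untreated knockdown and all 236 bp in untreated control mice. Over all 417 H3K27ac regions of the list, 13 had H3K9ac in untreated knockdown and not in untreated control mice (3.12%), and 37 had it in untreated control and not in untreated knockdown mice (8.87%, interval 6.51 to 11.99), against 3.38% and 3.91% of all regions. Under ethanol, 26 (6.24%) had it in knockdown only and 15 (3.60%, interval 2.19 to 5.85) in control only, against 7.44% and 1.07% of all regions.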

How the data were processed

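ChIP-seq for H3K27ac, H3K9ac and input was made from dorsal hippocampus, and 8 peak lists of 6 columns were used, 1 per mark and condition. Peaks were called for ChIP against input at a false discovery rate of 0.001, per the labels. Per the submitters' processing notes, MACS2, bedtools, STAR 2.5.2a and bcl2fastq were used with GRCm38 and mm10, in roles and order not stated; the sources used here do not say how replicates were pooled. The authors deposited a score per peak, taken here as a −log10 q-value because none falls below 3; it ranks or filters peaks of the same list. Depth is unknown.

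Peaks on assembled chromosomes were merged where they overlapped or touched, and overlap means at least 1 base (Python 3.11.15, pandas 2.3.3, numpy 2.4.6; merging and classing were tested on simulated peaks and against bedtools 2.31.1). Samples were grouped by their labels. Shares carry 95% Wilson intervals, which cover counting error only; with 1 list per group no test was made. Gene names and ends are RefSeq's for GRCm38.p6; of 489 listed genes in 21 lists, 488 matched, and not every listed gene is reported here. A region belongs to a gene when its midpoint lies in the body or within 10 kb. Region sequences were not used here, so the planned GC and motif scan covers promoter windows alone.

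Regions and gene lists were chosen with earlier results of these data known. Named were the 12 highest regions by the lower of 2 within-list score percentiles, the 10 highest genes with a region at an end, fixed-list genes with a region, the 10 genes with most regions, the 12 highest with H3K9ac in both control lists alone, and the 5 widest. Settings tried were merging distance, score threshold, list length, overlap rule, gene window and leaving out repeats or same-score loci.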

Additional observations from a re-analysis of the deposited data

Results flagged for a closer look

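The share of control-only regions with an H3K9ac peak differed between knockdown and control mice in opposite directions by treatment. With ethanol, knockdown minus control was 3.59 percentage points, and in untreated mice it was -2.05 percentage points. With H3K9ac lists of equal length the differences were 0.768 with ethanol and -2.11 untreated, and at regions with no knockdown H3K27ac peak within 1 kb they were 1.29 and -4.11. Over all H3K27ac regions the same differences were 6.37 with ethanol and -0.530 in untreated mice. Each condition is 1 pooled list, so the difference between treatments was not tested.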

How the results depend on the processing

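No paired analysis was possible because each list pools the 3 replicates of its group, and for the same reason leaving out a replicate could not be run. Control-only regions numbered 710 and 494 when peaks within 500 bp and 1000 bp were merged, 556 with the control lists cut to a score of 5, and 2702 with lists of equal length, against 1562; regions in both knockdown lists only numbered 5557, 4415, 15230 and 4985 under these settings, 5959 with all lists cut to 5 and 3297 with the knockdown lists cut to 5, against 9752. At oligodendrocyte lineage genes the control-only share was 2.41% with the control lists cut and 9.19% with equal lengths, against 0.396% and 2.14% of all regions. The share of their regions in both knockdown lists only was 5.6% and 1.3% at these settings. With peaks merged within 500 bp, 4.9% were control-only and 4.3% were in both knockdown lists only.

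The H3K27ac ratio of knockdown to control at these genes was 0.778 with ethanol and 0.934 untreated for equal lengths (whole lists 1.31 and 1.13), 0.917 and 1.02 for the gene body only, and 1.07 and 1.06 with 50 kb. The H3K9ac ratio was 1.02 and 0.557 for equal lengths (whole lists 1.35 and 0.958), 1.30 and 0.592 for the body only, and 1.54 and 0.780 with 50 kb.

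For ethanol-treated knockdown, untreated knockdown, ethanol-treated control and untreated control, in that order, H3K9ac at control-only regions changed to 16.71%, 14.72%, 10.88% and 16.58% within 500 bp, to 5.44%, 4.03%, 2.63% and 6.34% at a score of 5, and to 10.54%, 9.00%, 9.25% and 13.11% at regions with no knockdown peak within 1 kb. With 50% of the region covered, the values for ethanol-treated knockdown, untreated knockdown and untreated control were 5.31%, 4.99% and 6.59%. With H3K9ac lists of equal length all 4 values, in the first order, were 4.80%, 4.23%, 4.03% and 6.34%. Without the start of chromosome 9, ethanol-treated control was at 2.98%. The 12 regions with H3K9ac in both control lists alone became 0 at a score of 5 and 2 without the same-score loci.

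Gene ends held 12.8% with a 2 kb and 25.1% with a 5 kb window and 5.55% within 1 kb of a start, on chromosomes with starts in the RefSeq table. Gene interiors then held 64.53% and 55.06%, and places outside genes 19.85% with 5 kb. A region of all 4 lists lay within 500 bp of 27.46% and within 5 kb of 60.95%. Listed genes with a control-only region numbered 92 with 50 kb, against 60; oligodendrocyte genes numbered 8 in the body only and 15 with 50 kb. The cause of these changes was not tested beyond what each setting leaves in. Alternatives on oligodendrocyte genes, chromosome 9, nearby knockdown peaks, same-score loci, gene starts and cut knockdown lists were chosen after seeing the data.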
